A study of Mus musculus with 56 samples.

Results

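N+P C5 cells are fetus/graft-specific CD8 T cells (T FGS) that carried PD1 and CD73 on their surface in mice that had just delivered, and they were compared here with the T FGS of virgin, untreated mice (Naive). The comparison used 11 libraries of the 56 in the series, 6 from N+P C5 and 5 from Naive, which were summed into 6 samples of the 30 in the series, 3 mice in each group. Libraries were assigned to the groups by the sample labels, and no measured value was used to choose them.

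All mice were C57BL/6 females, and the cells were CD8 T cells that bound the OVA:Kb tetramer, sorted from spleen and pooled lymph nodes at 200 cells per sample. The tetramer finds T cells that recognise a peptide of ovalbumin, which mice of the 2W-OVA.BALB/c strain carry as part of a transgenic antigen and C57BL/6 mice lack. N+P mice were naive females that carried a semi-allogeneic pregnancy after mating with 2W-OVA.BALB/c males, and were taken within days of delivery. Naive mice had no treatment. N+P C1 cells, the PD1- subset of the post-partum mice, and cells of Sensitized mice, which had rejected a 2W-OVA.BALB/c skin graft and were never mated, served for comparison. The clusters C1 and C5 were defined by flow cytometry in the study and were sorted on PD1 and CD73, whereas Naive and Sensitized T FGS were not split by these markers.

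A CD8 T cell that meets its antigen with little inflammation or for a long time can enter a restrained state, known as anergy or exhaustion. Such cells show co-inhibitory receptors (PD-1, LAG3, TIGIT), the ectoenzymes CD39 and CD73, which turn extracellular ATP into adenosine, and folate receptor 4. They use transcription factors of the NFAT and TOX families. A response to a graft instead leaves memory cells with granzymes, NK receptors, adhesion molecules and S100 proteins. Maternal T cells specific for fetal antigens are a setting in which both outcomes have been of interest.

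The 11 libraries held 10547084 to 30794374 counts and 12775 to 18012 detected genes, and a single rRNA gene took 0.446% to 29.4% of their counts. Summed per mouse, totals were 26400797, 32226374 and 27644620 in Naive, and 50176584, 32326272 and 27028748 in N+P C5. 1 library of Naive replicate 1 was gene for gene identical to a library of another group (S+P C4 replicate 1, from a sensitized post-partum mouse) and was left out. Its log2 CPM correlated with the other library of Naive replicate 1 with r = 0.920, and with the other library of the S+P C4 mouse with r = 0.887. These correlations run over genes, which share the libraries. Libraries of 1 mouse within both groups correlated with r from 0.903 to 0.929. Levels below are CPM, a gene's count as a share of the library scaled to a fixed total after TMM scaling, and log2 fold changes are edgeR estimates ± SE. A gene is said to rise or fall only where its adjusted p was under 0.1 and its absolute log2 fold change above 0.9.

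The label was checked against the transcripts of the sort markers and of CD8 T cells. *Pdcd1*, which encodes PD-1, stood at 1.73, 6.66 and 2.19 CPM in the 3 Naive mice and at 415, 178 and 143 CPM in the 3 N+P C5 mice. *Nt5e*, which encodes CD73, stood at 25.02, 63.2 and 51.7 CPM in Naive and 119, 161 and 162 CPM in N+P C5. Every N+P C5 mouse was above every Naive mouse for both genes, but the distance was wide for *Pdcd1* (log2 fold change 6.12 ± 1.62) and small for *Nt5e* (1.66 ± 1.28). As the gate selected cells by these proteins, the differences are given without a test. The PD1- cells of N+P C1 had 68.4, 6.27 and 11.9 CPM of *Pdcd1*, of which the highest was still below the lowest N+P C5 value. All 12 genes of CD8 T cell identity were detected, with a summed level of 8373 to 10923 CPM in Naive and 8632 to 10186 CPM in N+P C5, and *Cd4* had 0, 0.365 and 0 CPM in Naive and 0, 0 and 0 CPM in N+P C5.

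Among markers of other cells, the 3 genes of CD4 T and regulatory cells, *Cd4*, *Zbtb7b* and *Foxp3*, summed to 0 to 0.491 CPM in Naive and 2.33 to 9.28 CPM in N+P C5. *Cd4* was at 0 CPM in every N+P C5 mouse and *Foxp3* was seen in 1 of them, so in the others this sum was *Zbtb7b* alone. The erythroid and platelet markers summed to 0 to 2.76 CPM in Naive and 4.24 to 158 CPM in N+P C5. Both sums were higher in N+P C5 without overlap. The other lists overlapped between the groups. The B cell markers summed to 682 to 1386 CPM in Naive and 373 to 1349 CPM in N+P C5, nearly all of it *Ighm* (647 to 1335 against 327 to 1271 CPM), while *Ighd* ranged over 0 to 12.3 against 1.08 to 4.69 CPM and *Cd79b* over 10.9 to 34.04 against 33.3 to 61.2 CPM. Hemoglobin genes were high in 1 sample, N+P C5 replicate 2, where *Hba-a1* had 68.6 CPM against 0, 0 and 0 CPM in Naive. The near-identical *Hba-a2* was at 0, 28.7 and 0.621 CPM in N+P C5, *Hbb-bs* at 0.882, 36.4 and 2.05 CPM and *Hbb-bt* at 0.021, 15.1 and 0.186 CPM, so these genes too were high in replicate 2. Myeloid markers summed to 1.59 to 47.7 CPM in Naive and 13.2 to 19.9 CPM in N+P C5, and *C1qa*, *C1qb* and *C1qc* were at 0 in all 6 samples. Of the myeloid genes above 10 CPM in any of these samples, *Lyz2* was at 8.89, 40.5 and 0 CPM in Naive and 0, 0 and 0 CPM in N+P C5. *Cd68* ranged over 1.59 to 25.1 against 4.68 to 15.3 CPM. NK cell markers summed to 54.5 to 62.7 CPM in Naive and 53.6 to 76.6 CPM in N+P C5, with *Ncr1* at 0 in all 6 and *Gzma* at 0 to 34.4 against 0.0292 to 36.5 CPM. Dendritic cell markers summed to 65.4 to 92.3 CPM in Naive and 78.9 to 84.3 CPM in N+P C5, with *Clec9a* and *Siglech* at 0. *Itgax* had no count in Naive and 11.8, 4.35 and 2.95 CPM in N+P C5, while *Cst3* ranged over 63.1 to 91.3 against 68.9 to 76.7 CPM. Gamma delta T cell markers summed to 7.18 to 25.1 CPM in Naive and 11.1 to 84.8 CPM in N+P C5, with *Trgc2* at 3.95 to 6.35 against 0.0292 to 35.5 CPM and *Trgc4* at 0 to 7.98 against 1.78 to 38.4 CPM. Their part in the results below was not tested.

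Of 19657 genes tested, 8 rose in N+P C5 (0.0407%) and 0 fell in the edgeR test, against 632 higher and 365 lower with DESeq2 on the summed libraries. With no adjustment, 634 genes (3.23%) were higher and 413 (2.1%) lower at p under 0.05, and the 3 mice of each group did not overlap for 1454 genes (7.4%) higher and 1078 (5.48%) lower in N+P C5. These shares are the background for each gene group described below. As these are bulk samples, a level that differs between groups can reflect more cells that make a transcript or more of it per cell, and the 2 cannot be told apart. The number of calls depended on which other samples shared the fit. Without the 3 samples of the series that had under 9000 detected genes, none of which is in the groups compared, 119 genes (0.609% of 19553) were higher and 1 was lower, and all 8 genes were among the 119.

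The gene with the smallest adjusted p was *Itgb1*, which encodes integrin beta 1, the shared chain of the receptors that bind fibronectin, collagen and VCAM-1 and a marker of antigen-experienced T cells. It was at 38.5, 56.9 and 38.95 CPM in Naive and at 1265, 631 and 1350.2 CPM in N+P C5, a mean of 44.8 ± 10.5 (SD, n = 3) against 1082 ± 393 (SD, n = 3). The lowest N+P C5 mouse was far above the highest Naive mouse, and the log2 fold change was 4.59 ± 0.58 (adjusted p = 0.000104). *S100a6*, a small calcium-binding protein of activated and memory T cells, was nearly constant in Naive, at 12.3, 10.8 and 9.71 CPM, and stood at 428, 129 and 200.2 CPM in N+P C5. Its log2 fold change was 4.53 ± 0.6 (adjusted p = 0.000137). Both genes passed under every alternative tried except limma voom, where their adjusted p was 0.112 for *Itgb1* and 0.278 for *S100a6* at similar fold changes.

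*Bhlhe40* encodes a basic helix-loop-helix factor that T cell receptor signals induce and that supports cytokine production in T cells. It was close to undetected in Naive, at 0.206, 0 and 0.189 CPM, against 379, 182 and 154 CPM in N+P C5 (log2 fold change 10.81 ± 1.89, adjusted p = 0.0164). *Entpd1* encodes CD39, which starts the conversion of ATP to adenosine that CD73 completes. It had 0.0412, 0 and 0.0378 CPM in Naive and 15.4, 25.2 and 28.7 CPM in N+P C5, with so few Naive counts that the ratio of the pooled counts, 894, has a 95% counting interval of 247 to 7389 (adjusted p = 0.0801). The interval covers counting error only.

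*Gzmk* encodes granzyme K, a protease of effector and memory CD8 T cells. It was at 0.0823, 0 and 0.151 CPM in Naive and 14.97, 19.7 and 11.9 CPM in N+P C5 (log2 fold change 7.60 ± 1.5, adjusted p = 0.0541). *Endod1*, an endonuclease-domain gene, was at 0, 0.199 and 0.0378 CPM in Naive and 83.1, 66.7 and 41.2 CPM in N+P C5 (log2 fold change 9.55 ± 1.81, adjusted p = 0.0382). *Ttc39c*, a tetratricopeptide repeat gene, had no count in any Naive mouse and 49.8, 3.19 and 15.9 CPM in N+P C5. Its mean was at least 619-fold higher when the Naive group was set to a floor of 3 counts (adjusted p = 0.0382), and at least 257-fold without N+P C5 replicate 1, with replicate 2 well below the others. The long noncoding RNA *AU020206* stood at 41.4, 14.6 and 47.3 CPM in Naive and 237, 166 and 266 CPM in N+P C5 (log2 fold change 2.70 ± 0.55, adjusted p = 0.0769). *AU020206* lies opposite to *Akap13* and *Gzmk* opposite to *Esm1*, and whether counting used strand is not given in the sources used here, so reads of the overlapping genes cannot be told apart.

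**Figure D1:**
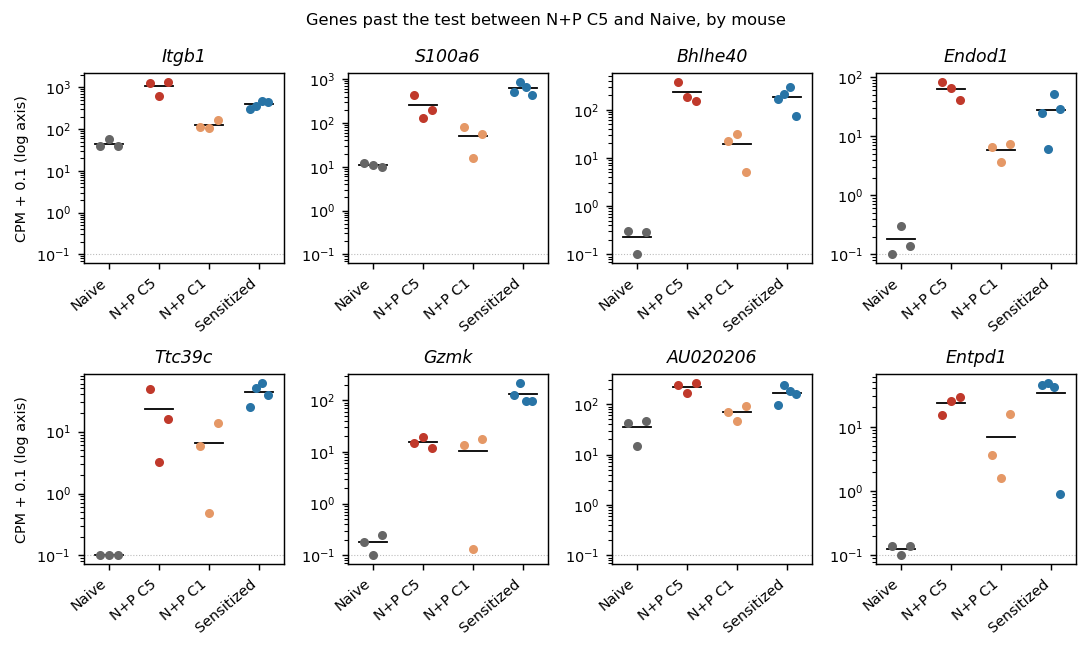
Level of each of the 8 genes that rose in N+P C5, as CPM + 0.1 on a log axis, in Naive, N+P C5, N+P C1 and Sensitized samples. Each point is a mouse, the bar is the mean of the plotted values and the dotted line marks 0 CPM. All 3 N+P C5 points lie above all 3 Naive points in every panel, and the N+P C1 points lie between them for *Itgb1*, *S100a6*, *Bhlhe40* and *Endod1*.

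On GRCm39 with GENCODE annotation, *Itgb1* lies at chr8:129411876-129460618 on the forward strand, *S100a6* at chr3:90520140-90535843 on the forward strand and *Bhlhe40* at chr6:108636626-108644502 on the forward strand. *Entpd1* lies at chr19:40600810-40731585 on the forward strand, *Gzmk* at chr13:113308142-113362442 on the reverse strand and *Endod1* at chr9:14265286-14292803 on the reverse strand. When each of the 6 mice was left out in turn, *Itgb1* and *S100a6* passed the thresholds in every fit. Without any 1 of the 3 Naive mice, these were the 2 genes called. Without N+P C5 replicate 1 *Bhlhe40* passed as well, and without N+P C5 replicate 2 or 3 *AU020206* and *Entpd1* did not pass. With the shared library kept in Naive replicate 1, 5 genes were called, and *Bhlhe40*, *Endod1* and *Gzmk* were not among them.

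RefSeq held a promoter window, 250 bases before to 50 after a start, for 5 of the 8 genes, on GRCm38.p6. *Bhlhe40*, *Endod1* and *Ttc39c* had none. The windows of the genes with the smallest adjusted p, and of the CD39 gene at its second start, are shown. These genes rose in the same bulk samples as *Bhlhe40*, whose product is known to bind E-boxes. Whether it acts on them was not tested. Capitals mark the letters GGAAA (the core that NFAT factors bind), TGANTCA (AP-1) and CACGTG (the E-box), searched on both strands.
*Itgb1*, chr8:128685404-128685703, forward strand: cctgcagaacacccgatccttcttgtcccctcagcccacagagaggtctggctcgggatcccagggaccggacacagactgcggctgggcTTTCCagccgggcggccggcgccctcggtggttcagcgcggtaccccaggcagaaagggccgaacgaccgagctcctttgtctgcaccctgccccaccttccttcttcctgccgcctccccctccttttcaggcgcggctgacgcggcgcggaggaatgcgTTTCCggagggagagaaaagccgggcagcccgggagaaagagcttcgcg
*S100a6*, chr3:90612644-90612943, forward strand: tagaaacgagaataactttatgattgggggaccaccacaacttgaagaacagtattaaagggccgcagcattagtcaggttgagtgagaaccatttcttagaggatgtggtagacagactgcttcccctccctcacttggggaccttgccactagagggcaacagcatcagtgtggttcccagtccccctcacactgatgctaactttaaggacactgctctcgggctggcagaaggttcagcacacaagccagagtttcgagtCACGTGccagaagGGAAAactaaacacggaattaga
*Entpd1*, chr19:40659520-40659819, forward strand: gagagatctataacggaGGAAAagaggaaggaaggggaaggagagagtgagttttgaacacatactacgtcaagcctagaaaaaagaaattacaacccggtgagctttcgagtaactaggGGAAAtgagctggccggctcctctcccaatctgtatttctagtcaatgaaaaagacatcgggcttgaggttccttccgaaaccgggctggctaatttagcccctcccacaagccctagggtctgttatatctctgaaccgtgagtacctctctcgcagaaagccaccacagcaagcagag
The *S100a6* window held 1 E-box and 1 NFAT core, both in the bases after the start. The *Itgb1* window and the second *Entpd1* window held 2 NFAT cores each, and the *AU020206* window, not shown, held 1. The other *Entpd1* window and that of *Gzmk*, also not shown, held none of the motifs. AP-1 letters were in none of the 6 windows. Among all 32851 RefSeq windows of the same length, 61.3% held the NFAT core, 7.81% the AP-1 letters and 7.15% the E-box, so these matches are a description of the letters and do not mark sites.

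Co-inhibitory receptors other than the sorted *Pdcd1* had a median change of 1.96 on the log2 scale over 12 members, against 0 over all genes tested. In the edgeR test 0 passed after adjustment, against 3 higher with DESeq2 on the summed libraries. That DESeq2 fit also called higher 8 of 19 cytotoxic, 6 of 20 S100 and annexin, 6 of 19 costimulation and 5 of 20 integrin genes. At an unadjusted p under 0.05 in the edgeR test, 4 of the 12 receptors were higher and none lower. Of the receptors, 8 of 12 did not overlap and were higher, while 1 did not overlap and was lower. *Lag3*, whose product binds MHC class II and dampens T cell receptor signals, was at 1.23, 1.49 and 0.264 CPM in Naive and 311, 309 and 217 CPM in N+P C5 (log2 fold change 8.12 ± 2.06, adjusted p = 0.273). *Cd200*, the ligand of an inhibitory receptor, was at 0.823, 5.20 and 1.21 CPM in Naive and 209, 239 and 244 CPM in N+P C5. Its N+P C5 values lay close together, and its log2 fold change was 6.57 ± 1.87 (adjusted p = 0.579).

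*Tigit*, a receptor that competes with CD226 for CD155, was at 0.206, 11.1 and 9.07 CPM in Naive and 142, 98.4 and 109 CPM in N+P C5 (log2 fold change 4.10 ± 1.24, adjusted p = 0.755). *Ctla4*, which takes B7 ligands away from CD28, was already present in Naive, at 35.2, 59.4 and 37.9 CPM, and was at 349, 197 and 213 CPM in N+P C5 (log2 fold change 2.52 ± 1.18, adjusted p = 0.765). *Havcr2*, which encodes TIM-3, a receptor of terminally exhausted cells, was low throughout, at 0, 0 and 0.567 CPM in Naive and 10.6, 0.76 and 0.9 CPM in N+P C5. In the fit without the 3 samples of few genes, *Lag3*, *Tigit*, *Ctla4* and *Cd200* passed both thresholds, with adjusted p of 0.00351, 0.0162, 0.0488 and 0.0695. Passing in that fit was not particular to these receptors. Also higher there were 5 of 20 integrin and adhesion genes, 4 of 20 S100 and annexin genes and 4 of 19 cytotoxic genes. *Cd44*, *Anxa2* and *Ifng*, given below with the adjusted p of the main fit, were among those called.

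**Figure D2:**
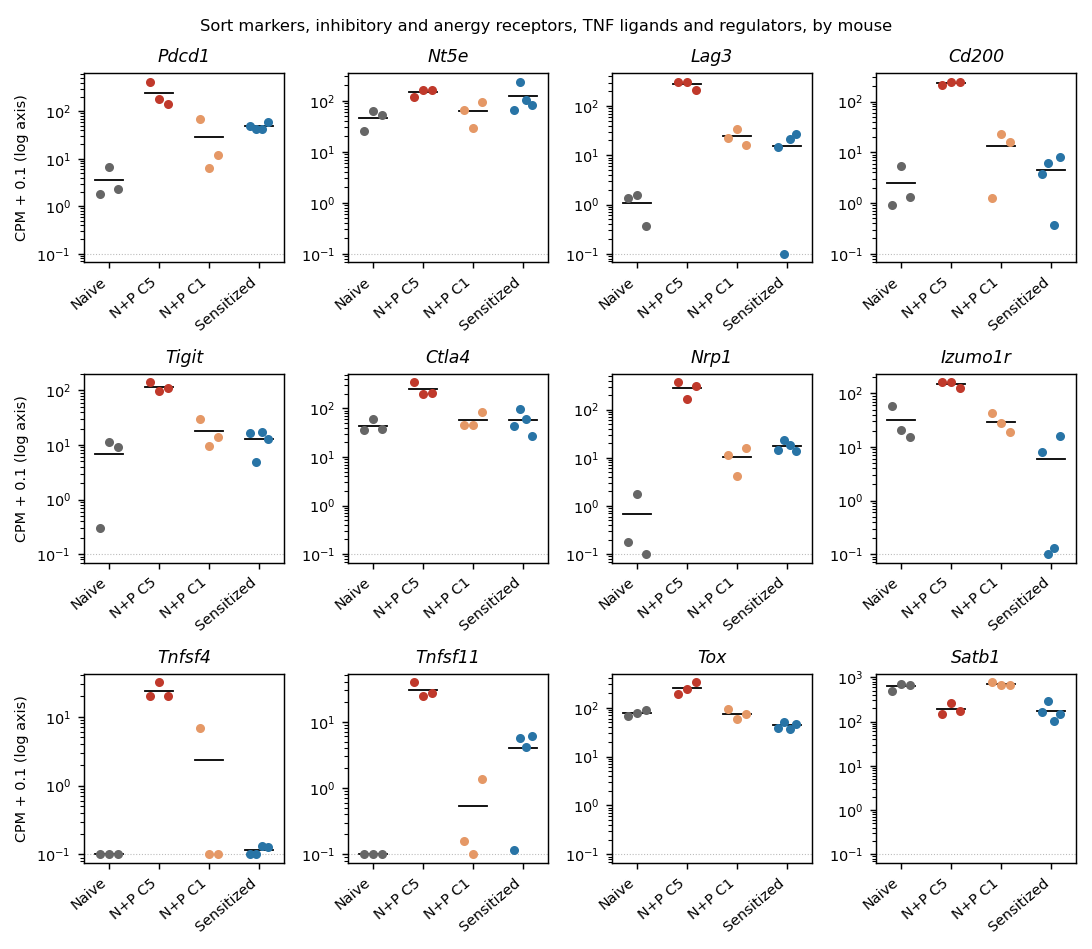
Levels of 12 genes as CPM + 0.1 on a log axis in Naive, N+P C5, N+P C1 and Sensitized samples, with 1 point per mouse, a bar at the mean of the plotted values and a dotted line at 0 CPM. The N+P C5 mice are above all Naive mice for every gene except *Satb1*, for which they are below, and no Naive mouse had a count of *Tnfsf4* or *Tnfsf11*.

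In the group of folate receptor 4, adenosine and anergy genes, without the sorted *Nt5e*, *Entpd1* was the member that rose, 3 of 13 were higher at an unadjusted p under 0.05, and 6 of 13 did not overlap and were higher. *Nrp1*, which encodes neuropilin 1, a coreceptor found on regulatory and on tolerant T cells, was at 0.0823, 1.69 and 0 CPM in Naive and 374, 169.5 and 314 CPM in N+P C5. All N+P C5 mice were more than 100 CPM above Naive, but the spread of this gene across the series was wide (log2 fold change 8.90 ± 2.01, adjusted p = 0.14, and 2.85e-06 without the 3 samples of few genes). *Rnf128*, which encodes GRAIL, a ubiquitin ligase of anergic T cells, was high in 2 mice and low in 1, at 17.9, 0.555 and 25.1 CPM in N+P C5 against 0.0412, 0 and 0 CPM in Naive (adjusted p = 0.765). *Izumo1r*, which encodes folate receptor 4, was at 58.5, 20.4 and 15.3 CPM in Naive and 160.4, 163 and 125 CPM in N+P C5, without overlap, and did not pass (unadjusted p = 0.117).

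Among 19 factors tied to the antigen response and exhaustion, *Bhlhe40* rose, 5 were higher at an unadjusted p under 0.05, and 11 did not overlap and were higher. The median change was 1.46 and 18 of the 19 fitted changes were positive. *Nfatc1*, a calcium-dependent factor that drives co-inhibitory receptor genes, stood at 110.2, 75.9 and 88.6 CPM in Naive and 242, 247 and 266 CPM in N+P C5 (log2 fold change 1.46 ± 0.43, adjusted p = 0.667). *Nfat5*, its relative that responds to osmotic stress, was at 47.1, 23.96 and 32.6 CPM in Naive and 183, 143 and 124 CPM in N+P C5 (log2 fold change 2.12 ± 0.72, adjusted p = 0.765). *Tox*, needed for the persistence of exhausted CD8 T cells, was at 66.4, 79.1 and 88.03 CPM in Naive and 188, 240.5 and 329 CPM in N+P C5 (log2 fold change 1.70 ± 0.6, adjusted p = 0.765). For each of these, every N+P C5 mouse was above every Naive mouse. *Nr4a1* and *Egr1*, early factors induced by the receptor that were chosen once their values were known, overlapped between the groups. *Nr4a1* was at 118, 93.4 and 88.4 CPM in Naive and 145, 85.98 and 69.5 CPM in N+P C5, and *Egr1* at 59.97, 44.2 and 31.1 and 40.1, 38.4 and 41.7 CPM.

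Effector and memory transcription factors had 7 of 16 members higher at an unadjusted p under 0.05, none lower, and 9 that did not overlap and were higher. *Zeb2*, a repressor that acts with T-bet in effector differentiation, was at 0.123, 0.166 and 0 CPM in Naive and 42.7, 36.4 and 12.6 CPM in N+P C5 (adjusted p = 0.193). *Id2*, which sustains effector cells by blocking E proteins, was at 189, 222 and 232 CPM in Naive and 515, 467 and 565 CPM in N+P C5 (adjusted p = 0.765). *Runx2*, a factor of long-lived memory cells, was at 0.0412, 10.9 and 3.63 CPM in Naive and 78.4, 21.01 and 31.97 CPM in N+P C5 (adjusted p = 0.765). *Tbx21*, which encodes T-bet and was named after its values had been seen, was at 10.7, 8.48 and 8.88 CPM in Naive and 72.8, 32.5 and 63.3 CPM in N+P C5 (adjusted p = 0.765). *Eomes*, a relative of T-bet kept in exhausted and memory cells, overlapped between the groups, at 0, 29.3 and 55.4 CPM in Naive and 28.7, 64.1 and 46.9 CPM in N+P C5.

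Besides *Itgb1*, 6 of the 20 integrin and adhesion genes were higher at an unadjusted p under 0.05, none was lower, and 8 of 20 did not overlap and were higher, while 3 did not overlap and were lower. *Cd44*, the hyaluronan receptor that marks antigen-experienced T cells, was at 26.1, 55.1 and 71.1 CPM in Naive and 302, 181 and 319.9 CPM in N+P C5 (log2 fold change 2.40 ± 0.52, adjusted p = 0.124). *Itgal*, the alpha chain of LFA-1, was at 292, 216 and 222 CPM in Naive and 677, 459 and 749 CPM in N+P C5 (adjusted p = 0.14). *Itga4*, the partner of integrin beta 1 in VLA-4, was at 72.5, 159 and 168 CPM in Naive and 398, 472 and 616 CPM in N+P C5 (adjusted p = 0.193). Both chains of VLA-4 were above Naive in every N+P C5 mouse, and the beta chain passed the test.

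*Cxcr3*, the receptor for interferon-induced chemokines, was at 53.1, 50.04 and 41.2 CPM in Naive and 463, 315 and 377 CPM in N+P C5 (log2 fold change 3.00 ± 0.66, adjusted p = 0.132). Of the 16 chemokine and egress receptors tested, 3 were higher at an unadjusted p under 0.05 and none lower, while 2 did not overlap and were higher and 2 did not overlap and were lower. Their median change was 1.43, with 9 of 16 fitted changes positive and 7 negative. With a mean of at least 10 CPM the median was -0.15, with 6 of 13 positive and 7 negative. Their summed level was lower in every N+P C5 mouse, at 2356 to 2869 CPM in Naive and 1784 to 2289 CPM in N+P C5. The sum is weighted to the genes with the highest levels, so it does not show that the receptors fell as a group. *Ccr6* was at 0, 0 and 0 CPM in Naive and 12.4, 7.19 and 0 CPM in N+P C5. *Hip1*, an endocytic adaptor, was at 0.0412, 0 and 0.793 CPM in Naive and 58.1, 29.8 and 40.4 CPM in N+P C5 (adjusted p = 0.14).

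The S100, annexin and cytoskeletal group had 7 of 20 members higher at an unadjusted p under 0.05, with *S100a6* past the test, and 11 that did not overlap and were higher. *Anxa2*, a membrane-binding annexin, was at 15.5, 27.9 and 7.41 CPM in Naive and 466, 91.97 and 129.7 CPM in N+P C5 and narrowly missed the threshold (log2 fold change 3.76 ± 0.8, adjusted p = 0.101). *Ahnak*, a giant scaffold protein, was at 90.5, 104 and 125 CPM in Naive and 562, 311 and 379 CPM in N+P C5 (adjusted p = 0.14). *Lgals1*, which encodes galectin 1, was at 155, 91.7 and 92.9 CPM in Naive and 843, 393 and 291 CPM in N+P C5 (adjusted p = 0.193). For *S100a6*, *Anxa2*, *Ahnak* and *Lgals1* alike, N+P C5 replicate 1 was the highest of the 3.

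Effector molecules were mixed. *Gzmk* rose, 8 of 19 cytotoxic and effector genes were higher at an unadjusted p under 0.05, none was lower, and 8 did not overlap and were higher, while 1 did not overlap and was lower. *Ifng* was at 5.19, 4.90 and 0.0756 CPM in Naive and 155, 48.1 and 60.8 CPM in N+P C5 (log2 fold change 4.70 ± 1.11, adjusted p = 0.182). *Nkg7*, a granule membrane protein that cytotoxic cells hold in abundance, was at 1101, 839.9 and 946 CPM in Naive and 2467, 1717 and 1816 CPM in N+P C5 (adjusted p = 0.659). *Fasl*, the death ligand, was at 4.82, 0.0331 and 5.29 CPM in Naive and 107, 36.4 and 16.3 CPM in N+P C5 (adjusted p = 0.765). *Prf1* and *Gzmb*, named after their values had been seen, encode the core of the lytic granule. *Prf1* was at 119.7, 115 and 118 CPM in Naive and 49.1, 57.9 and 52.9 CPM in N+P C5, where no mouse reached the Naive values (unadjusted p = 0.0817). *Gzmb* was at 0.206, 8.28 and 0.0378 CPM in Naive and 144, 0 and 12.3 CPM in N+P C5, high in replicate 1 and undetected in replicate 2.

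Among NK lectin receptors, 3 of 14 were higher and 4 lower at an unadjusted p under 0.05. *Klrk1*, which encodes the activating receptor NKG2D, was at 17.7, 15.97 and 14.8 CPM in Naive and 177, 37.3 and 35.1 CPM in N+P C5 (log2 fold change 2.36 ± 0.54, adjusted p = 0.14). *Klrc1*, which encodes the inhibitory receptor NKG2A, was at 1.19, 3.71 and 0.113 CPM in Naive and 236, 22.2 and 27.3 CPM in N+P C5 (adjusted p = 0.178). N+P C5 replicate 1 held most of both transcripts. *Klrb1c*, which encodes NK1.1, was at 0.0823, 0 and 0 CPM in Naive and 9.42, 2.45 and 2.42 CPM in N+P C5. The 4 lower genes, *Klra1*, *Klra6*, *Klra7* and *Klra9*, are Ly49 receptors of near-identical sequence, whose reads the counting may have split. Each was detected in at most 2 of the 3 Naive mice and was at or near 0 in N+P C5, so the median change of this group, -2.77, rests on genes with few counts.

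Costimulatory receptors and TNF family ligands had a median change of 1.53, with 7 of 19 members higher at an unadjusted p under 0.05, none lower, and 8 that did not overlap and were higher. *Tnfsf4*, *Tnfsf11* and *Tnfsf9*, which encode OX40L, RANKL and 4-1BBL, had no count in any Naive mouse. *Tnfsf4* was at 20.004, 31.4 and 20.02 CPM in N+P C5, at least 643-fold above the Naive floor (adjusted p = 0.433, and 0.0188 without the 3 samples of few genes). *Tnfsf11* was at 39.02, 24.5 and 26.8 CPM in N+P C5, at least 813-fold above the floor (adjusted p = 0.667, and 0.0371 without those samples). *Tnfsf9* was at 9.49, 10.9 and 13.7 CPM in N+P C5, at least 307-fold above the floor (adjusted p = 0.765). All 3 ligands were thus present in every N+P C5 mouse and in no Naive mouse. *Tnfrsf4*, which encodes OX40, the receptor for OX40L, was at 0.0412, 1.49 and 4.04 CPM in Naive and 86.6, 70.1 and 33.8 CPM in N+P C5 (adjusted p = 0.765). *Tnfrsf1b*, which encodes TNF receptor 2, was at 17.7, 8.45 and 20.9 CPM in Naive and 92.3, 75.8 and 91.1 CPM in N+P C5 (adjusted p = 0.765), and *Tnfsf8*, which encodes CD30L, at 63.4, 101 and 119.99 and 215, 182 and 186 CPM. *Icos*, a costimulatory receptor of the CD28 family, was at 62.7, 65.5 and 79.2 CPM in Naive and 274, 255 and 251 CPM in N+P C5 (log2 fold change 1.91 ± 0.75, adjusted p = 0.765).

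Of 12 follicular-helper-like genes tested, 4 were higher at an unadjusted p under 0.05 and none lower, and 6 did not overlap and were higher. *Slamf6*, a receptor of the self-renewing exhausted pool, was at 230.2, 319.8 and 302 CPM in Naive and 832, 812 and 1174 CPM in N+P C5 (log2 fold change 1.73 ± 0.63, adjusted p = 0.765). *Sh2d1a*, which encodes the adaptor SAP of SLAM receptors, was at 62.1, 60.4 and 62.9 CPM in Naive and 95.1, 156 and 163 CPM in N+P C5. *Il21* was seen in 1 of the 3 Naive mice, with 0.0331 CPM, and was at 2.12, 37.1 and 3.69 CPM in N+P C5, nearly all in replicate 2. *Il10*, an anti-inflammatory cytokine, was likewise detected in that mouse alone, at 13.1 CPM.

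Of 25 genes that restrain T cell receptor signalling, 3 were higher at an unadjusted p under 0.05 and none lower, and the median change was -0.04. In this list 8 did not overlap and were higher, while 2 did not overlap and were lower. *Spry1* and *Spry2* encode inhibitors of the Ras pathway. *Spry1* was at 0, 0.497 and 0 CPM in Naive and 64.7, 42.5 and 47.99 CPM in N+P C5 (adjusted p = 0.765), and *Spry2* at 0, 1.13 and 0.982 and 7.89, 20.02 and 51.5 CPM (adjusted p = 0.765). *Rgs16*, a brake on chemokine receptor signals, had no count in Naive and 41.9, 4.68 and 23.8 CPM in N+P C5. Of the 24 cytokine receptors, 6 did not overlap and were higher, while 1 did not overlap and was lower. They had 3 members higher at an unadjusted p under 0.05, among them *Il2rb* (127, 139.6 and 174 against 385, 354 and 383 CPM, adjusted p = 0.601) and *Il10ra* (7.98, 7.32 and 15.3 against 89.8, 70.3 and 83.8 CPM, adjusted p = 0.664). The third was *Il18rap*, a chain of the IL-18 receptor, at 15.7, 24.2 and 29.02 CPM in Naive and 200.1, 31.5 and 73.3 CPM in N+P C5. *Il7r*, the receptor for the survival cytokine IL-7, overlapped between the groups, at 393, 1342 and 708 CPM in Naive and 551, 559.5 and 666 CPM in N+P C5.

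Genes of naive and quiescent T cells leaned the other way, with 17 of 24 fitted changes negative and a median of -0.38. In the edgeR test 0 passed, against 0 lower with DESeq2 on the summed libraries, 1 was lower at an unadjusted p under 0.05, and 5 did not overlap and were lower. *Satb1*, a chromatin organizer of thymic and naive T cells, was at 482, 695 and 683 CPM in Naive and 145, 266 and 173 CPM in N+P C5 (log2 fold change -1.67 ± 0.67, adjusted p = 0.765). *Ccr7*, *Lef1* and *Tcf7* were chosen once their values were known. *Ccr7*, a lymph node homing receptor, was at 1315, 1363 and 1095 CPM in Naive and 625, 552 and 361 CPM in N+P C5. *Lef1* was at 397, 574 and 462 and 113, 304 and 231 CPM, whereas *Tcf7*, which encodes TCF-1 and maintains stem-like T cells, overlapped at 663, 709 and 831 and 459.8, 641 and 751 CPM.

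Ribosomal protein genes were lower as a group in N+P C5. All 77 fitted changes were negative, with a median of -0.77, and 70 of 77 did not overlap and were lower. In the edgeR test 0 passed, against 0 with DESeq2 on the summed libraries, and 26 of 77 were lower at an unadjusted p under 0.05 with none higher. DESeq2 on the separate libraries called 6 of 77 lower, against 217 lower of 15912 genes tested in that fit. That fit treats the technical libraries of a mouse as independent samples. Summed over the group, these genes held 12.7%, 10.95% and 11.7% of all counts in the Naive mice and 7.65%, 8.07% and 7.29% in the N+P C5 mice, before TMM scaling. Every N+P C5 mouse was thus below every Naive mouse. *Rps3a1*, a protein of the small subunit, was at 2901, 2704 and 2605 CPM in Naive and 1976, 1389.8 and 1442 CPM in N+P C5 (log2 fold change -0.77 ± 0.27, adjusted p = 0.765). *Rpl6*, of the large subunit, was at 3215, 1876 and 1998 and 1646, 1198 and 933 CPM (adjusted p = 0.765), and *Rplp0*, of its stalk, at 7199, 5146 and 5009.9 and 4210.3, 2912 and 2244 CPM (adjusted p = 0.765). *Rpl4* was at 5928, 4353 and 3769 CPM in Naive and 3248, 2594 and 2156 CPM in N+P C5, and *Rpl14* at 1911, 1520.01 and 1442 and 1031, 1026 and 906 CPM. *Fau*, which encodes a ribosomal protein fused to a ubiquitin-like domain and is not in this list, was at 2298, 1793 and 1916 CPM in Naive and 1239, 1183 and 928 CPM in N+P C5. Scaling by library size alone gave a median of -0.60 with 1 of the 77 changes positive, and RLE scaling a median of -0.72 with none positive. The 77 genes share the same libraries and are not independent observations.

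**Figure D3:**
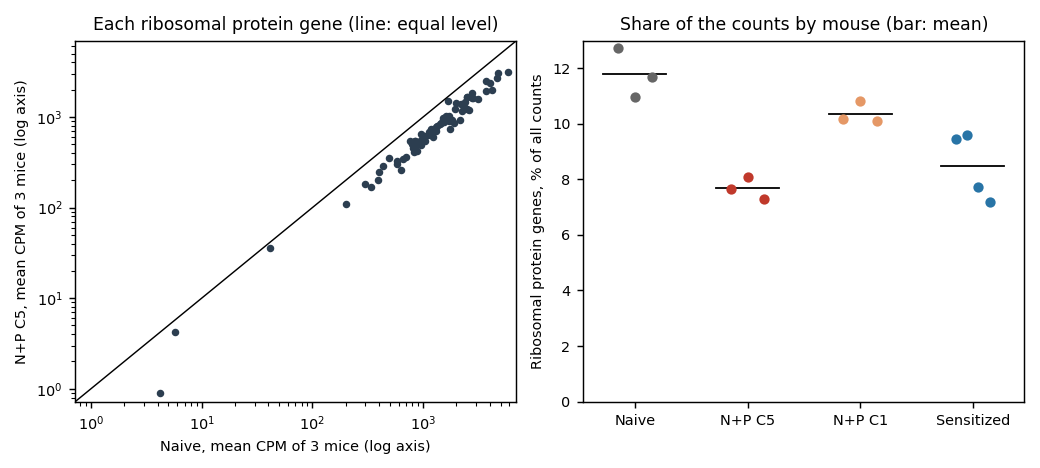
Left, mean CPM of each of the 77 ribosomal protein genes over 3 Naive mice (x, log axis) and 3 N+P C5 mice (y, log axis), with a line at equal level. Right, the summed share of these genes in each mouse, in percent of all counts, with a bar at the mean. All 77 points lie below the line, and the N+P C5 mice sit between 7.29% and 8.07%.

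Other genes lower in every N+P C5 mouse that had the smallest p-values were *Saraf*, a regulator of store-operated calcium entry, *Ppia*, which encodes cyclophilin A, and the chaperone *Hsp90aa1*. *Saraf* was at 915, 969 and 746 CPM in Naive and 671, 486 and 358 CPM in N+P C5 (adjusted p = 0.765). *Ppia* was at 2931, 2272 and 2337 CPM in Naive and 1426, 1488 and 1037 CPM in N+P C5, and *Hsp90aa1* at 1317, 857 and 798 and 602, 560.2 and 398 CPM. *Igsf23* and *Grm6* had no count in N+P C5 and 22.7, 11.04 and 5.48 and 21.98, 6.86 and 5.59 CPM in Naive.

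The remaining lists are given by their counts. Of 26 cell cycle genes and of 16 glycolysis genes, 0 passed the edgeR test and 0 had an unadjusted p under 0.05, and 0 were called under each alternative, DESeq2 included. *Mki67*, a marker of dividing cells, was at 4.49, 23.9 and 16.02 CPM in Naive and 28.5, 14.6 and 53.9 CPM in N+P C5, overlapping. Of 28 interferon-stimulated genes, 1 was lower (*Ifi47*, 725, 534 and 513 against 372, 297 and 346 CPM) and 0 higher at an unadjusted p under 0.05. The 13 mitochondrially encoded genes, the 8 GIMAP genes and the 11 glucocorticoid and hormone receptor genes tested had 0 members under that p, although 4 of the 8 GIMAP genes did not overlap and were higher and 1 did not overlap and was lower. Of 21 immediate-early and stress genes tested, 2 heat shock genes were lower at that p, *Hspa8* (5825, 1995 and 1746 against 1855, 1584 and 1013 CPM, the groups overlapping) and *Hsp90aa1*. Of 17 survival and death genes, 2 were higher, *Fasl* and *Bcl2a1d* (14.2, 0.729 and 2.34 against 56.04, 30.9 and 28.7 CPM).

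Of 13 regulatory-cell-associated genes tested, 4 were higher at an unadjusted p under 0.05 and none lower, against 0 that passed the edgeR test and 4 higher with DESeq2 on the summed libraries. The median change was 1.97, and 5 did not overlap and were higher, while 1 did not overlap and was lower. Their summed level was 194 to 231 CPM in Naive and 866 to 1294 CPM in N+P C5. The members under that p were *Nrp1*, *Lag3*, *Ctla4* and *Il10*, of which the first 3 passed in the fit without the 3 samples of few genes. All 4 are described above with other groups, and *Nrp1*, *Lag3* and *Ctla4* held most of the summed level in N+P C5. This list is therefore not separate evidence from those groups. *Foxp3*, the lineage factor of regulatory T cells, was seen in 1 of the 6 mice, at 4.33 CPM in N+P C5.

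**Figure D4:**
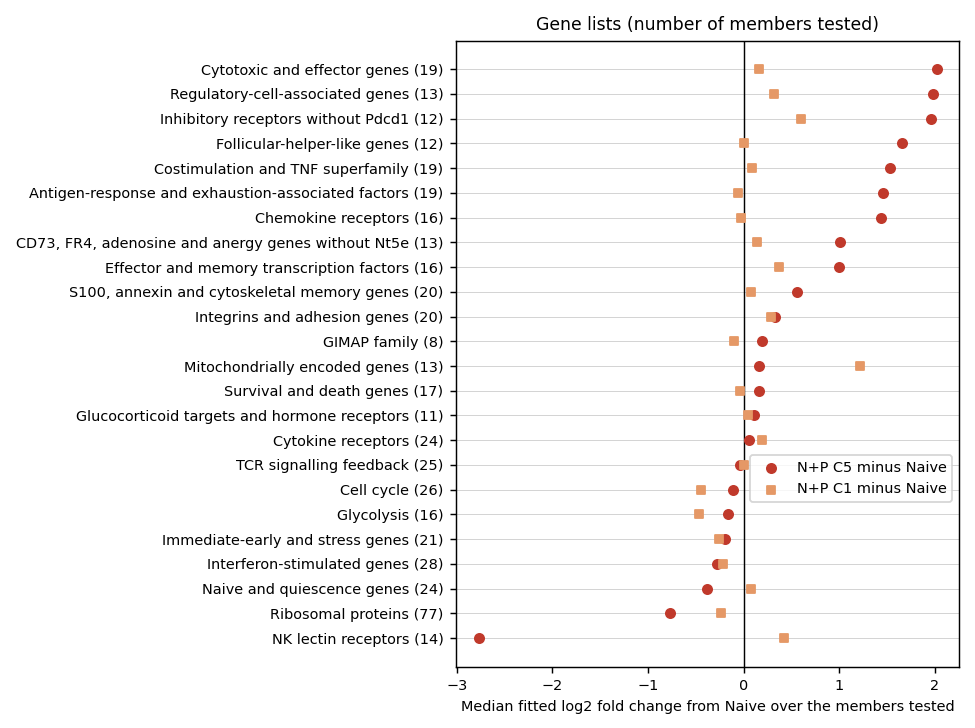
Median fitted log2 fold change from Naive (x) over the members tested of 24 gene lists (y, with the number tested), for N+P C5 (circles) and N+P C1 (squares), which share the Naive samples. The lists leave out the sorted *Pdcd1* and *Nt5e*, and the N+P C5 median is 1.96 for inhibitory receptors, near 0 for cytokine receptors and T cell receptor feedback genes, and -0.77 for ribosomal proteins.

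The PD1- cells of post-partum mice were compared with the PD1+CD73+ cells. Between N+P C5 and N+P C1, 847 of 19657 genes (4.31%) had an unadjusted p under 0.05, and 1 passed the test. *Itgb1* was at 114, 105 and 162 CPM in N+P C1, between Naive and N+P C5 in all mice, and was higher in N+P C5 by 3.09 ± 0.54 on the log2 scale (adjusted p = 0.0499). With the replicate number as a block, on the assumption, from the column names, that both subsets of a number came from 1 mouse, 29 genes were called, 25 higher and 4 lower, with *Itgb1* among them. Leaving out any of the 6 samples except N+P C5 replicate 2 left no call, and omitting the 3 samples of few genes left 15.

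The other 7 genes that rose from Naive were not called between the subsets. *Endod1* was at 6.54, 3.52 and 7.26 CPM in N+P C1, *Bhlhe40* at 22.3, 31.98 and 4.97 CPM and *S100a6* at 81.9, 15.4 and 55.97 CPM, in each case below every N+P C5 mouse and above every Naive mouse. *Gzmk* was at 13.4, 0.0348 and 17.9 CPM, which overlaps the N+P C5 values (log2 difference 0.57 ± 1.08, unadjusted p = 0.603). *Cd44* was at 41.7, 50.03 and 54.6 CPM in N+P C1 and *Tox* at 93.4, 59.8 and 74.8 CPM, both overlapping Naive. *Cd44* differed from N+P C5 by 2.46 ± 0.52 on the log2 scale (unadjusted p = 4.72e-05, adjusted p = 0.464). *Satb1* was at 763, 668 and 658 CPM, overlapping Naive. Ribosomal protein genes made up 10.1%, 10.8% and 10.1% of counts in N+P C1, above all N+P C5 mice and below all Naive mice.

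Sensitized T FGS show the levels after an encounter with the same antigens on a graft. The study profiled Sensitized cells by flow cytometry weeks after the graft was rejected, and N+P cells within days of delivery. The time since the antigen was met and the kind of encounter therefore cannot be told apart. Against them, 1582 of 19657 genes (8.05%) had an unadjusted p under 0.05 and 2 passed the test. *Klrk1* was lower in N+P C5, and Sensitized mice had 915, 1044, 1312 and 1152 CPM (log2 difference -3.74 ± 0.56, adjusted p = 0.00309). *Gm4956*, a transcribed pseudogene of unassigned function that was named after its values had been seen, was at 32.01, 51.2 and 86.04 CPM in N+P C5, 3.91, 2.15 and 3.06 CPM in Naive and 0.018, 0, 0 and 0.026 CPM in Sensitized (adjusted p = 0.0978). Both calls were lost when N+P C5 replicate 2 or 3 was left out, and *Gm4956* was also lost without N+P C5 replicate 1 or any single Sensitized mouse.

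Members of the groups above fell on different sides of the Sensitized cells. *S100a6* was at 500.01, 865, 669 and 435 CPM, above all N+P C5 mice, and *Gzmk* at 125, 217, 94.8 and 96.2 CPM, also above all of them (log2 difference -3.10 ± 1.13, unadjusted p = 0.0101, adjusted p = 0.599). *Bhlhe40* was at 166, 217, 296 and 72.98 CPM and *Cxcr3* at 378, 523, 324 and 308 CPM, both overlapping N+P C5. The inhibitory receptors were at lower values in Sensitized mice. *Lag3* was at 14.5, 0, 20.9 and 26.6 CPM, *Cd200* at 3.58, 6.15, 0.273 and 7.84 CPM and *Tigit* at 16.4, 4.85, 17.5 and 12.6 CPM, each below every N+P C5 mouse, with unadjusted p of 0.01, 0.00108 and 0.00539 and adjusted p of 0.599 for each. *Nrp1* was at 14.7, 23.2, 18.1 and 13.6 CPM, *Izumo1r* at 8.01, 0, 0.0303 and 15.7 CPM and *Tnfsf4* at 0, 0, 0.0303 and 0.026 CPM in Sensitized, again below every N+P C5 mouse. *Tox* was at 38.2, 51.97, 37.3 and 46.4 CPM in Sensitized, against 188, 240.5 and 329 CPM in N+P C5 (log2 difference 2.54 ± 0.55, unadjusted p = 6.95e-05, adjusted p = 0.294). Ribosomal protein genes took 9.43%, 9.58%, 7.71% and 7.17% of counts in Sensitized mice, overlapping N+P C5, and *Satb1* was at 165, 287, 103 and 149 CPM, also overlapping.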

How the data were processed

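RNA was sequenced from sorted T FGS with a SmartSeq2 protocol. Per the labels and the methods of the study, the authors trimmed reads with Cutadapt 3.4, aligned them to GRCm39 with STAR 2.6.1b, kept uniquely mapping reads and deposited raw counts per gene from featureCounts 2.0.1. The strand option and annotation release are not given in the sources used here. Reads carry no molecular identifiers, so counting intervals and floors cover counting error only.

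Technical libraries of a mouse were summed. 1 Naive library that was identical to a library of another group was left out of Naive. A pair of S+P C7 libraries, labelled as different replicates, was near-identical and was averaged. Their log2 CPM correlated with r = 0.9985, against at most 0.948 between libraries of 1 mouse and subset. The counts were analysed with edgeR 4.0.16 in R 4.3.3 (TMM scaling, genes kept by filterByExpr at 10 counts, quasi-likelihood test with robust estimation) on all 7 groups, 30 samples. Benjamini-Hochberg adjustment ran over all 19657 genes, with thresholds of 0.1 for the adjusted p and 0.9 for the absolute log2 fold change. Where a group had 0 counts, the ratio is a lower bound, the mean CPM of the other group over the level of 3 counts in the group at 0, and with 1 to 3 counts it has an exact 95% interval. DESeq2 1.42.0, limma 3.58.1 voom and other filters, scalings and sample sets were alternatives. The fits were checked on simulated data.

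Genes were named if they passed both thresholds, were among the 12 smallest p-values per direction without overlap and with a mean of at least 10 CPM in the higher group, were sort or flow panel markers, were among up to 4 members per direction of a list with an unadjusted p under 0.05, or were markers of other cells above 10 CPM. Some genes that meet this rule are not reported here. Other names were chosen after their values had been seen. The groups, the 34 lists and their members were chosen with earlier results of these data known, and the definition of the ribosomal list was narrowed after a first look at its members. Promoters came from RefSeq. The replicates were separate mice, sorted in more than 1 experiment. Which mouse came from which experiment was not given by the labels, so experiment and group cannot be told apart.

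Same-numbered N+P C1 and C5 samples were taken as 1 mouse, from the shared prefix of their column names and not from the labels. Their deviations from the group means correlated with r of 0.066, 0.0173 and 0.0586, each highest for its own number. For each N+P C5 sample, the same-numbered Naive sample, at 0.0177, 0.00958 and 0.00328, was also the highest of the Naive samples. For Naive replicate 3 its own number was not the highest, as N+P C5 replicate 2 gave 0.00838. Samples of different mice thus showed this order from the N+P C5 side, so that order alone cannot show whether samples share a mouse. Naive and N+P C5 are different mice, and their numbers do not pair them.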

Additional observations from a re-analysis of the deposited data

Results flagged for a closer look

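The change of *Itgb1* from Naive differed between the 2 post-partum subsets, by 3.09 on the log2 scale (edgeR adjusted p = 0.0499), with all 3 N+P C5 mice above all 3 N+P C1 mice. *Klrk1* differed between N+P C5 and Sensitized by -3.74 (adjusted p = 0.00309), with all 3 N+P C5 mice below all 4 Sensitized mice. *Gm4956* differed between the same groups by 11.75 (adjusted p = 0.0978), a fitted value that rests on 2 counts in Sensitized and depends on the prior count. *Entpd1* was at 0.805 CPM in Sensitized replicate 4, apart from the other 3 Sensitized mice by 0.844 of the range of the group. Chance sets a sample apart in this way in about 1 of 20 groups.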

How the results depend on the processing

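The number of genes called between N+P C5 and Naive, 8 with all groups in the fit, was 830 and 997 with DESeq2 on separate and on summed libraries, 108 with edgeR on separate libraries, 108 with limma voom, 57 with only the groups compared and 120 without the 3 samples under 9000 genes. It was 13 with scaling by library size, 24 with a mean of at least 10 CPM, 14 with no filter, and 5 each with an adjusted p under 0.05, without robust estimation and with the shared library kept. Leaving out 1 mouse gave 2 to 8. Between N+P C5 and N+P C1, 1 gene became 665 and 701 with DESeq2 on separate and summed libraries, 28 with edgeR on separate libraries, 48 with voom, 51 with only the groups compared, 15 without the 3 samples and 0 with no filter, and leaving out 1 mouse gave 0 to 1. Between N+P C5 and Sensitized, 2 became 716 and 933 with DESeq2 on separate and summed libraries, 146 with edgeR on separate libraries, 86 with voom, 45 with only the groups compared, 33 without the 3 samples, and 1 each with an adjusted p under 0.05 and with scaling by library size, and leaving out 1 mouse gave 0 to 1. The fits on separate libraries treated the technical libraries of a mouse as independent samples, so their counts do not rest on mice as replicates. The cause of the differences between settings was not tested.

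With the replicate number as a block, 11 genes were called against Naive, 3 of them among the 8, 29 against N+P C1, and 2 against Sensitized, neither of them among the 2 named. Same-numbered Naive and N+P C5 samples share only a number, and their deviations correlated with r of 0.0177, 0.00958 and 0.00328. The alternatives were also followed for 77 genes, which are not the ribosomal list. These were the sort markers and the named genes with an unadjusted p under 0.05 in the main edgeR fit. Over these genes and their alternatives, 1236 of 1504 log2 fold changes kept their direction and side of the threshold. Of the rest, 222 passed it newly, 46 no longer passed and 0 changed direction. As the genes were selected by their p in the same data, the lack of reversals is not separate support. A gene with 0 to 3 counts in a group is limited by depth, since 3 counts over the Naive group correspond to 0.0371 CPM.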
